A study of Homo sapiens with 3 samples.

Results

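The genes described here are 10 components of the Notch pathway: the ligands DLL1, DLL3 and JAG1, the receptors NOTCH1 and NOTCH2, and the HES and HEY transcription factors HES1, HES5, HES6, HEY1 and HEY2. They were read from every probe set annotated with 1 of these symbols and no other, which gave 27 of the 54675 probe sets on the array and 10 of 19775 genes. The arrays were Affymetrix human expression arrays hybridised with RNA from cultures of H9, an established human embryonic stem cell line. The 3 groups were astrocytes at day 210 that had received retinoic acid (RA) from day 10 to day 21, astrocytes at day 210 that had received fibroblast growth factor 8 (FGF8) over the same days, and neuroepithelial cells at day 17 that had received neither morphogen. All groups began as embryoid bodies from the same line, and each had 1 array from 1 line, so nothing below has a replicate check and no p-value is given.

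In the Notch pathway a ligand of the Delta or Jagged family on one cell binds a Notch receptor on its neighbour. Cleavage by an ADAM protease and then by gamma-secretase frees the intracellular domain, which enters the nucleus and, with the DNA-binding protein RBPJ and a Mastermind protein, switches on HES and HEY genes. In the developing brain HES1 and HES5 keep progenitors undifferentiated by repressing proneural genes, and Notch signalling later favours astrocyte over neuron formation.

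RBPJ binds the letters GTGGGAA, and several direct target genes carry them close to the transcription start. In the RefSeq promoter table (GRCh38.p14, 250 bases before to 50 bases after the start) 7 of the 10 genes were matched: NOTCH1, NOTCH2, JAG1, HES1, HES5, HES6 and HEY2. A search for GTGGGAA on both strands, the only motif searched, found it in HES1, HES5 and HEY2. Of all 35116 promoter windows of that length 6.25% held it, and 0.248% held it more than once, as HES5 and HEY2 did. The windows of these genes are shown because they held the motif, from 250 bases before the start to 10 bases past it. The matched windows without it are not shown. Each runs 5′ to 3′ on the gene's strand, with the match in capitals, and TTCCCAC is the same motif on the opposite strand. The HES5 window is chr1:2530254-2530513 on the minus strand, with matches beginning 224 and 81 bases before the start. The HES1 window is chr3:194135898-194136157 on the plus strand, with a match beginning 85 bases before the start. The HEY2 window is chr6:125749382-125749641 on the plus strand, with matches beginning 213 and 4 bases before the start. A match is a stretch of letters and not a measured binding site.
HES5 promoter: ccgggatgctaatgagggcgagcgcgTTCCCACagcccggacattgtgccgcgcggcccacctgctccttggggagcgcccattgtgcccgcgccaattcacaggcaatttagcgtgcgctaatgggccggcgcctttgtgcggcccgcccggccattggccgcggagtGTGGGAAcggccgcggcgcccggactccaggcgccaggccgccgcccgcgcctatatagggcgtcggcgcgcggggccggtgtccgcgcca
HES1 promoter: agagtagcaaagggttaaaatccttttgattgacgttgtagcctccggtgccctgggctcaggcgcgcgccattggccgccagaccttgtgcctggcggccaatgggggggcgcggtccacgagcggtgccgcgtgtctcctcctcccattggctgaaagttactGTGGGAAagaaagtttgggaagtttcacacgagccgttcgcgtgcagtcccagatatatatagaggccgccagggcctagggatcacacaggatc
HEY2 promoter: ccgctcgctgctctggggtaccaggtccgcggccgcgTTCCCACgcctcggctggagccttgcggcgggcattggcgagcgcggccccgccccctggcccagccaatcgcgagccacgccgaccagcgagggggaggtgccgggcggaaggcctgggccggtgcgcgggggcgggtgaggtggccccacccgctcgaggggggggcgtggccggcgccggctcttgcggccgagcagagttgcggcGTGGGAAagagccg

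Values below are intensities after quantile normalization across the 3 arrays. A floor was set at the median of all probe sets that are not array controls, an intensity of 26.4 or 4.72 on the log2 scale, and a lower value has no order below it. Where one side of a difference lay at the floor, only a lower limit of the fold is known, given with the words at least. Of the 27 probe sets 18 were above the floor on every array, 5 on 1 or 2 arrays and 4 on none, namely 1 of NOTCH1, 2 of JAG1 and 1 of HES1. For each gene the probe set brightest on average over the arrays, on the log2 scale, is called the main one, and the type prone to cross-hybridisation (_x_at) was passed over where another existed. Intensities of different probe sets cannot be compared with each other, so only the arrays are compared for each gene.

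The astrocyte labels were borne out by 8 of 10 astroglial markers, which were at least 2-fold higher than in neuroepithelial cells in both the RA and the FGF8 comparison, with GFAP, S100B and AQP4 at the floor in neuroepithelial cells. All 8 neuroepithelial markers were above the floor at day 17. That array also held signal from marker genes of other cell types. All 6 mural and mesenchymal genes were above the floor in it, with COL1A1 at 5024 and COL3A1 at 1497. The endoderm gene AFP measured 679 there, the choroid plexus gene TTR 335 and the pluripotency gene DPPA4 1352.5. SOX17, FOXA2, GATA4 and NANOG were at the floor in it. The part of other cell types in the differences was not tested. The ratio of 3′ to 5′ signal of ACTB, which climbs as RNA shortens, was 6.67 in the RA array, 6.63 in the FGF8 array and 1.33 in the neuroepithelial array. Hybridisation controls were 2.62-fold brighter in the RA array and 1.09-fold brighter in the FGF8 array than in the neuroepithelial array. The part of these technical differences in the results was not tested, and the stage of the cells cannot be told apart from them. Differences in RNA per cell cannot be told apart from differences in the share of cells that express a gene.

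Ligands and receptors differed by at most 2.09-fold between the astrocyte and neuroepithelial arrays on their main probe sets, apart from DLL3, known only as a bound in RA, while 2 HES and HEY genes, HES5 and HEY1, differed by far more. In RA astrocytes HES5 was 40.2-fold and HEY1 14.9-fold lower than in neuroepithelial cells. In FGF8 astrocytes HES5 was 13.1-fold lower and HEY1 1.85-fold lower. On the main probe sets HES6 had the next widest measured difference, at 2.25-fold higher in FGF8 astrocytes, and DLL3 and HEY2 gave only bounds in RA astrocytes.

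**Figure D1:**
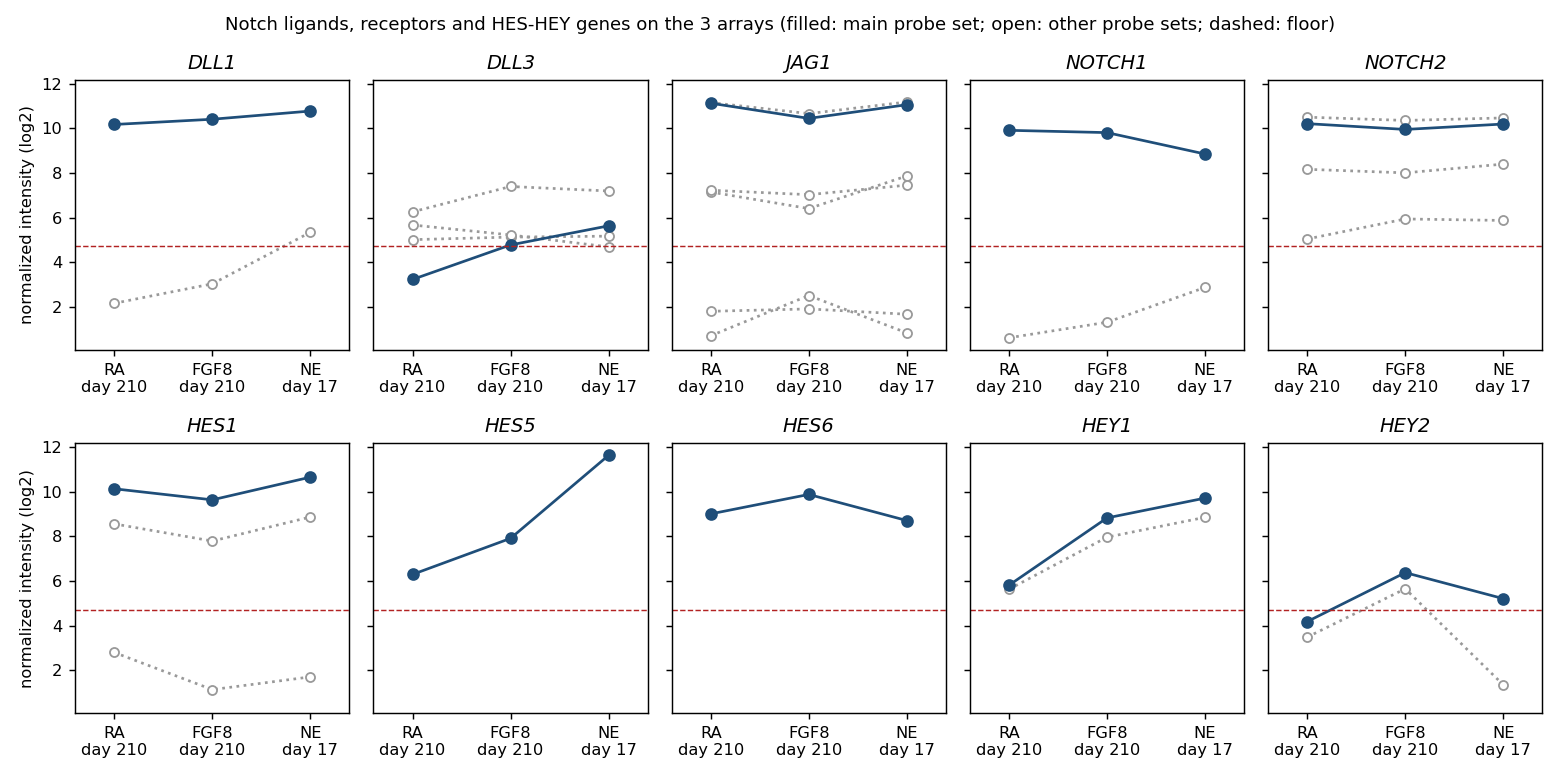
Normalized intensity (log2, vertical axis) of every probe set of the 10 genes in the RA astrocyte, FGF8 astrocyte and neuroepithelial (NE) arrays. Filled points joined by solid lines are the main probe set, open points the others, and the dashed line is the floor at 4.72. HES5 and HEY1 are lowest in RA and highest in neuroepithelial cells, while NOTCH2 is nearly level on its main probe set.

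Among the ligands, DLL1, the Delta ligand that newborn neurons present to neighbouring progenitors, had an intensity of 1157 in RA astrocytes, 1361 in FGF8 astrocytes and 1755 in neuroepithelial cells. It was therefore highest at day 17 and similar in the astrocyte cultures, at log2 differences of -0.60 in RA and -0.37 in FGF8. Under a scaling to equal array medians the FGF8 difference was 0.19. Its other probe set was above the floor in neuroepithelial cells alone, at 40.7. JAG1, a Jagged ligand found in progenitors and in reactive astrocytes, measured 2238 in RA astrocytes, 1397 in FGF8 astrocytes and 2136 in neuroepithelial cells. The RA culture was close to neuroepithelial cells (log2 difference 0.07) and the FGF8 culture was lower than both, 1.53-fold against neuroepithelial cells. Over the alternatives the RA difference ran from -0.15 to 0.63 and the FGF8 difference from -0.61 to -0.06.

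The 4 JAG1 probe sets above the floor all placed RA above FGF8, by log2 differences of 0.20 to 0.74. They were less alike against neuroepithelial cells. For RA they ran between -0.72 and 0.07, and for FGF8 between -1.46 and -0.43, with 1 of the 4 past 2-fold. DLL3 is a Delta family member that acts within the cell and marks neurogenic progenitors. Its main probe set was at the floor in RA astrocytes (9.44 before the floor), at 27.5 in FGF8 astrocytes and at 49.8 in neuroepithelial cells.

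The main DLL3 probe set and 2 of the others were close to the floor, and the 4 did not agree on direction. Another probe set read 76.9 in RA, 169 in FGF8 and 147 in neuroepithelial cells, which places RA 2.20-fold below FGF8 and FGF8 beside neuroepithelial cells. Another read 32.4 in RA, 35.1 in FGF8 and 36.2 in neuroepithelial cells, and the last read 51.1 in RA, 37.5 in FGF8 and 25.9, below the floor, in neuroepithelial cells. The order of the 3 cultures for DLL3 therefore depends on the probe set.

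Among the receptors, NOTCH1, the principal receptor of neural progenitors, measured 965 in RA astrocytes, 899 in FGF8 astrocytes and 463 in neuroepithelial cells. Both astrocyte cultures were near 2-fold above neuroepithelial cells, at 2.09-fold and 1.94-fold, and differed from each other by a log2 value of 0.10. The 2 astrocyte comparisons share the neuroepithelial array, so its error would move both. The other NOTCH1 probe set was at the floor in all 3 arrays, and averaging both gave a log2 difference of 0.53 in RA. NOTCH2, a receptor that glial cells also carry, measured 1187 in RA astrocytes, 992 in FGF8 astrocytes and 1173 in neuroepithelial cells.

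NOTCH2 had the smallest range of the 10 genes, 0.26 log2 units over the 3 arrays, although its FGF8 difference of -0.24 became 0.33 with equal array medians. Its 3 other probe sets of 1 symbol gave log2 differences from neuroepithelial cells between -0.83 and 0.03 in RA and between -0.39 and 0.07 in FGF8. The largest of these came from the dimmest probe set, at 33.1 in RA, 61.7 in FGF8 and 58.9 in neuroepithelial cells. A probe set annotated to NOTCH2 together with NOTCH2NL genes, its near-identical copies, was left out, and the retained NOTCH2 probe sets may still read those copies.

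HES1, the repressor that oscillates in neural progenitors, measured 1123 in RA astrocytes, 797 in FGF8 astrocytes and 1611 in neuroepithelial cells. It was highest in neuroepithelial cells and lowest in FGF8 astrocytes, where it was 2.02-fold lower than at day 17, against 1.43-fold lower in RA. Its second probe set kept that order, at 378 in RA, 222 in FGF8 and 468 in neuroepithelial cells. With array medians set equal the differences from neuroepithelial cells shrank to 0.01 in RA and -0.44 in FGF8, while RA stayed 0.44 above FGF8. HES1 was higher in RA than in FGF8 on both probe sets, the opposite order to HES5.

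HES5, a Notch target confined largely to neural progenitors, measured 78.8 in RA astrocytes, 241 in FGF8 astrocytes and 3168 in neuroepithelial cells. The 3 cultures were well separated, with RA lowest and 3.06-fold below FGF8. Among all genes compared with neuroepithelial cells only 29 had a lower difference than HES5 in RA, of 13339, and 105 in FGF8, of 13004. HES5 has 1 probe set, so no second one bears on these values. Over 7 alternative treatments of the values its log2 difference stayed between -5.33 and -4.92 in RA, and between -3.72 and -3.14 in FGF8.

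HEY1, a HES-related repressor that helps to maintain neural precursors, measured 56.4 in RA astrocytes, 455 in FGF8 astrocytes and 841 in neuroepithelial cells. FGF8 astrocytes were 1.85-fold below neuroepithelial cells, whereas RA astrocytes were 8.06-fold below FGF8 astrocytes. The second HEY1 probe set gave the same order, at 49.7 in RA, 250.2 in FGF8 and 463 in neuroepithelial cells, and RA was 5.03-fold below FGF8 on it. Only 100 of 12958 genes had a lower RA minus FGF8 difference than HEY1.

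HEY2, a relative of HEY1 best known from the heart and arteries and present in some neural progenitors, was at the floor in RA astrocytes (18.2), at 83.3 in FGF8 astrocytes and at 37.2 in neuroepithelial cells. FGF8 was highest, 2.24-fold above neuroepithelial cells and at least 3.16-fold above RA. The second HEY2 probe set was above the floor in FGF8 alone, at 50.4. With the deposited values the FGF8 difference was 0.85 and no longer past 2-fold. No HEY2 value was more than 3.16-fold above the floor.

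HES6, which counters HES1 and promotes neuronal differentiation, measured 516 in RA astrocytes, 942 in FGF8 astrocytes and 419 in neuroepithelial cells. It was highest in FGF8 astrocytes, 2.25-fold above neuroepithelial cells, and RA astrocytes were 1.23-fold above them. HES6 and HEY2 were the members that passed 2-fold upwards in FGF8, and each has an order over the arrays unlike that of HES5.

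**Figure D2:**
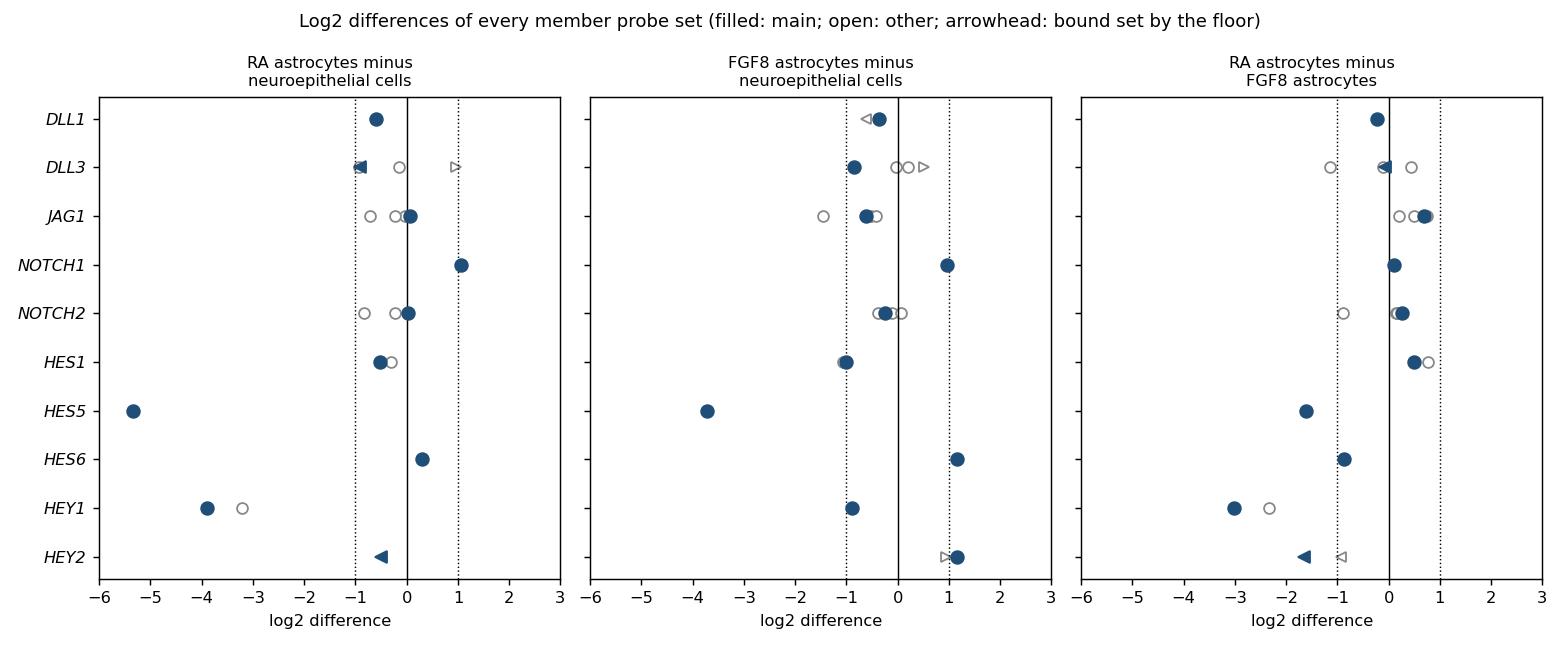
Log2 difference (horizontal axis) of every probe set above the floor on at least 1 of the 2 arrays, for each of the 10 genes (rows) in the 3 comparisons. Filled symbols are the main probe set, open symbols the others, arrowheads are bounds, and dotted lines mark 2-fold. HES5 lies at -5.33 and -3.72 against neuroepithelial cells, and both HEY1 probe sets lie past 2-fold in RA and inside it in FGF8.

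Counted over the 10 genes, RA astrocytes had 1 gene at least 2-fold higher than neuroepithelial cells (NOTCH1) and 2 at least 2-fold lower (HES5 and HEY1). The background over all genes in that comparison was 18.1% higher and 14.6% lower, or 32.7% in either direction, and 3 of 10 members is close to that. FGF8 astrocytes had 2 genes higher (HES6 and HEY2) and 2 lower (HES5 and HES1), against a background of 12.8% higher and 10.2% lower, or 23.1% in either direction. RA had 0 genes higher and 3 lower (HES5, HEY1 and HEY2) than FGF8, against a background of 9.69% higher and 7.86% lower, or 17.5% in either direction.

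The median log2 difference of the 10 genes was -0.51 in RA and -0.49 in FGF8 against neuroepithelial cells, where the median of all genes was 0.07 and 0.05. Under a scaling to equal array medians the all-gene median was 0.345 in RA and 0.42 in FGF8, and the members' median was -0.04 in RA and 0.06 in FGF8. Of the genes past 2-fold in either direction, 55.4% were higher in RA and 55.6% in FGF8, against 70.8% and 75.8% under that scaling. The RA minus FGF8 median was -0.15 over the members and 0.01 over all genes. Over the 3 arrays HES5 had a range of 5.33 and HEY1 of 3.90 log2 units. HEY2 had at least 1.66 and DLL3 at least 0.92, and the other members between 0.26 and 1.17.

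**Figure D3:**
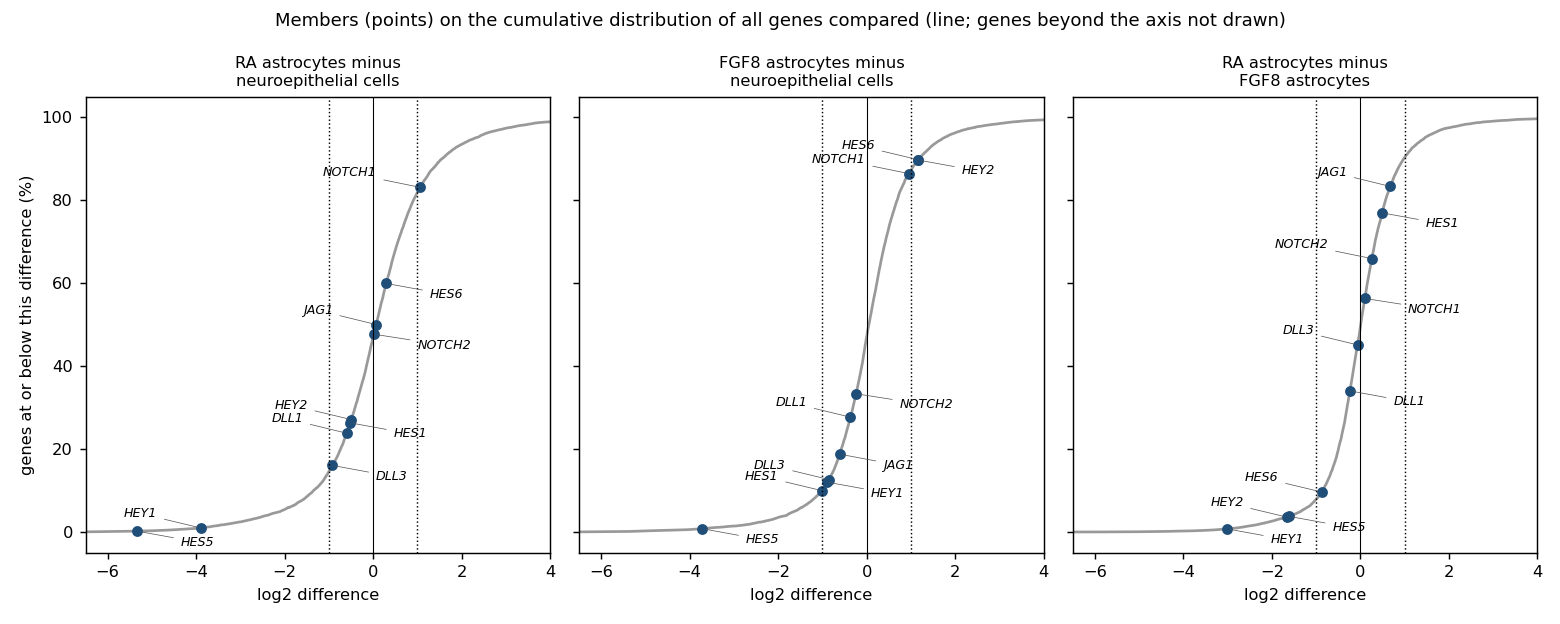
Share of all genes at or below a given log2 difference (line, percent) against that difference, with the 10 genes marked as points, for the 3 comparisons. Dotted lines mark 2-fold. HES5 and HEY1 sit in the lowest 1% of genes in RA against neuroepithelial cells, while most other members sit on the steep middle of the curve.

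Division and progenitor markers, when summed, were lower in both astrocyte cultures than in neuroepithelial cells. The summed intensity of 7 dividing-cell genes was 1269 in RA astrocytes, 8058 in FGF8 astrocytes and 14165 in neuroepithelial cells, the order that HEY1 and HES5 follow. All 7 were at least 2-fold lower in RA than in either other culture, and 4 of 7 were at least 2-fold lower in FGF8 than in neuroepithelial cells. The 8 neuroepithelial markers summed to 1394 in RA, 2584 in FGF8 and 22016 in neuroepithelial cells, with LIN28A and LIN28B at the floor in both astrocyte cultures. Of 6 compared between the astrocyte cultures 4 were at least 2-fold lower in RA. SOX3 was level, at 51.4 in RA and 53.2 in FGF8, and PAX6 was higher in RA, at 585 against 506. The part of the division and neuroepithelial markers in the HES5 and HEY1 differences was not tested.

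Genes with the most similar pattern were sought for the 3 members with the widest range, by Euclidean distance between mean-centred log2 values over the 3 arrays. Nearest to HES5 among 3936 genes were the homeobox gene OTX2 (distance 0.23), the transcription cofactor DACH1 (0.24) and the adhesion gene CNTNAP2 (0.29). Nearest to HEY1 were CDCA3, a cell division gene, at 0.09, the mitotic kinase MASTL at 0.15 and RAD51AP1, a DNA repair partner, at 0.15. OTX2 and DACH1 are also on the list of neuroepithelial markers. OTX2 measured 54.0 in RA, 207 in FGF8 and 2546 in neuroepithelial cells, and CDCA3 measured 68.0 in RA, 568 in FGF8 and 960 in neuroepithelial cells. HEY2, a bound in RA, had TSIX, CHD1 and ZNF37A nearest among 4242 genes. With 3 arrays many genes share any one pattern.

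Markers of other cell types differed in how many were above the floor. Of 7 endothelial genes, cells in which HEY1, HEY2 and JAG1 are also active, 1 was above the floor in RA astrocytes, 2 in FGF8 astrocytes and 3 in neuroepithelial cells, with summed intensities of 148, 99.8 and 261, and CDH5, TIE1 and VWF were at the floor on all arrays. Of 6 microglial genes 1, 1 and 0 were above the floor in the same order, with sums of 102, 68.7 and 55.9, and AIF1, CX3CR1, P2RY12 and PTPRC were at it on all arrays. Of 8 neuronal genes 6, 6 and 8 were above the floor, with sums of 14327, 19352 and 16486 and RBFOX3 at the floor in both astrocyte cultures. The part of neurons in the DLL1, DLL3 and HES6 values was not tested.

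The rest of the pathway was described from a list of 69 other genes in 11 roles, of which 63 had a probe set of 1 symbol and 57 were above the floor on at least 1 array. The remaining genes of the list were not analysed here. Past 2-fold in RA astrocytes against neuroepithelial cells lay 14 higher and 9 lower genes of the 57 compared, with a median log2 difference of 0.17. Of 55 compared, 7 were higher and 10 lower in FGF8 astrocytes, with a median of 0.23, and of 54 compared 6 were higher and 8 lower in RA than in FGF8, with a median of 0.03. Over all genes 18.1% were higher and 14.6% lower in RA, and 12.8% and 10.2% in FGF8, against neuroepithelial cells. In RA against FGF8 the shares over all genes were 9.69% higher and 7.86% lower.

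Among receptors, NOTCH3, which mural cells and neural stem cells carry, measured 830 in RA astrocytes, 377 in FGF8 astrocytes and 299.97 in neuroepithelial cells. RA was 2.77-fold above neuroepithelial cells and 2.20-fold above FGF8, while FGF8 was 1.26-fold above neuroepithelial cells. The second NOTCH3 probe set was above the floor in FGF8 alone, at 32.1. NOTCH4 was 2.26-fold higher in RA and 1.18-fold higher in FGF8 than in neuroepithelial cells. The 6 mural and mesenchymal genes summed to 6192 in RA, 396 in FGF8 and 13144 in neuroepithelial cells. PDGFRB, COL1A1 and COL3A1 were at the floor in RA, and RGS5, COL1A1 and COL3A1 in FGF8. The RA sum came mostly from ACTA2, at 4087 in RA and 2160 in neuroepithelial cells, and TAGLN, at 2047 and 3304. RGS5 measured 33.5 in RA. The part of these genes in the NOTCH3 value was not tested.

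Other ligands were dim. JAG2 measured 30.6 in RA, below the floor in FGF8 (24.5) and 59.9 in neuroepithelial cells, 1.96-fold lower in RA and at least 2.27-fold lower in FGF8. DLL4 was above the floor in RA alone, at 49.9. Non-canonical ligands, which bind or modify Notch without the usual Delta domain, included DLK1, which had the largest difference of the list in RA against neuroepithelial cells and in RA against FGF8. DLK1, which lacks that domain and can inhibit Notch, was below the floor in RA (15.6), at 2029 in FGF8 and at 15786 in neuroepithelial cells, so that RA was at least 599-fold and FGF8 7.78-fold below neuroepithelial cells. The second DLK1 probe set read 11.1, below the floor, in RA, 94.2 in FGF8 and 223 in neuroepithelial cells, a log2 difference of -1.24 in FGF8. DNER, a neuronal Notch-binding protein, was 3.83-fold higher in FGF8 than in neuroepithelial cells and 3.42-fold lower in RA than in FGF8. MFAP2, a matrix protein that can bind Jagged and Notch, was 30.8-fold lower in RA and 5.65-fold lower in FGF8, and MFAP5, its relative, was at least 4.55-fold lower in both, while its other 2 probe sets gave bounds of -0.57 and -1.31 on the log2 scale.

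The genes that prepare ligand and receptor differed in both directions. LFNG, the fringe glycosyltransferase that biases Notch towards Delta ligands and is itself a Notch-responsive gene in the embryo, measured 75.6 in RA, 148 in FGF8 and 507 in neuroepithelial cells. It was 6.70-fold lower in RA and 3.42-fold lower in FGF8. POFUT1, which adds the fucose that fringe extends, was 4.65-fold higher in RA and 1.37-fold higher in FGF8, while its second probe set was at the floor on all arrays. NEURL1, a ubiquitin ligase of ligands, was 2.75-fold higher in RA than in FGF8. It measured 84.0 in RA and was close to the floor in FGF8 (30.5) and neuroepithelial cells (27.5). Its second probe set was at the floor on all arrays. The other ligand endocytosis genes MIB1, MIB2 and NEURL1B had RA minus FGF8 log2 differences of -0.53, -0.06 and -0.45. MIB1 was also 2.24-fold lower in RA than in neuroepithelial cells, and its other probe sets were lower there too. Of 8 cleavage genes 2 were higher in RA (ADAM17 at 2.32-fold and NCSTN at 2.20-fold), 0 were lower, and 0 passed 2-fold in FGF8, on the main probe sets. Over all genes 18.1% were higher and 14.6% lower in RA, and 23.1% passed 2-fold in either direction in FGF8. Some other probe sets of the cleavage genes went the other way. Against neuroepithelial cells 2 of ADAM10 gave log2 differences of -1.40 and -1.99 in RA and -1.57 and -2.07 in FGF8, 1 of ADAM17 gave -0.26 in RA and -1.27 in FGF8, and 1 of APH1A gave -0.12 in RA and at most -2.14 in FGF8.

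In the nuclear complex RBPJ, the DNA-binding subunit, measured 927 in RA, 1243 in FGF8 and 1054 in neuroepithelial cells, a log2 difference of -0.19 in RA and 0.24 in FGF8, and its brightest other probe set gave -0.51 in RA and 0.24 in FGF8. Mastermind genes divided. MAML2 measured 1023 in RA, 950 in FGF8 and 205 in neuroepithelial cells, log2 differences of 2.32 in RA and 2.21 in FGF8, and its second probe set gave 1.12 and 0.78. MAML3 was below the floor in RA (9.40), at 106 in FGF8 and at 443 in neuroepithelial cells, at least 16.8-fold lower in RA and 4.19-fold lower in FGF8, and its 2 other probe sets were at the floor throughout. MAML1 lay within 2-fold in both, and the acetyltransferase KAT2B was 3.50-fold higher in RA and 3.26-fold higher in FGF8.

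NRARP, a small feedback inhibitor and direct Notch target, measured 239 in RA astrocytes, 260.2 in FGF8 astrocytes and 896 in neuroepithelial cells. It was 3.75-fold lower in RA and 3.44-fold lower in FGF8, and the astrocyte cultures differed by a log2 value of -0.12. HES4, a relative of HES1, measured 289 in RA, 231 in FGF8 and 660 in neuroepithelial cells, 2.28-fold lower in RA and 2.86-fold lower in FGF8, on a probe set of the _x_at type. Between RA and FGF8 both genes stayed within 2-fold.

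Of the 5 other HES, HEY and related genes compared, 3 were higher and 1 lower in RA, and 1 of 4 was higher and 1 lower in FGF8. The shares over all genes were 18.1% higher and 14.6% lower in RA, and 12.8% and 10.2% in FGF8. BHLHE41, a circadian repressor of the same wider family, was at the floor in neuroepithelial cells, at least 18.9-fold higher in RA and at least 9.48-fold higher in FGF8. Its 3 other probe sets were at the floor on all arrays. HES2 was above the floor in RA alone, at 241, which is at least 9.15-fold above both other arrays, while its 2 other probe sets were at the floor in all. Of 5 HES co-repressors compared between the astrocyte cultures, 1 was at least 2-fold higher in RA (TLE4), 1 lower (TLE2) and 3 within 2-fold. Over all genes 9.69% were higher and 7.86% lower in that comparison. TLE2 measured 30.3 in RA, 433 in FGF8 and 16.0, below the floor, in neuroepithelial cells, so that RA was 14.3-fold below FGF8, and its second probe set was above the floor in FGF8 alone, at 120. TLE4 measured 1678 in RA, 490.1 in FGF8 and 2270 in neuroepithelial cells, 3.42-fold higher in RA than in FGF8 and 4.63-fold lower in FGF8 than in neuroepithelial cells, although 3 of its 4 other probe sets put RA further below neuroepithelial cells, by log2 differences between -2.21 and -1.74.

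Few proneural genes, which HES proteins repress, could be read. NEUROG2, NEUROG3 and ATOH1 were at the floor on all arrays and NEUROG1 in both astrocyte cultures. INSM1, a zinc-finger factor of cells leaving the progenitor pool, measured 328 in RA, 3185 in FGF8 and 467 in neuroepithelial cells. It was 6.82-fold higher in FGF8 than in neuroepithelial cells and 9.70-fold lower in RA than in FGF8, and its second probe set gave log2 differences of 0.97 and -2.02 for the same comparisons. INSM1 and HES6 were both highest in the FGF8 array. The summed intensity of 5 oligodendrocyte-lineage markers was also highest there, at 1069 in RA, 6446 in FGF8 and 373 in neuroepithelial cells, led by PDGFRA, and SOX10 was at the floor in both astrocyte cultures. The neuronal marker DCX measured 583 in RA, 6738 in FGF8 and 2058 in neuroepithelial cells, but the neuronal list was divided. Of its 8 genes 2 were at least 2-fold higher and 2 lower in FGF8 than in neuroepithelial cells. STMN2 measured 153 in RA, below the floor in FGF8 (17.1) and 2238 in neuroepithelial cells. SYT1 measured 2060 in RA, 405 in FGF8 and 631 in neuroepithelial cells. The part of both marker lists in the HES6, INSM1 and DNER values was not tested.

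**Figure D4:**
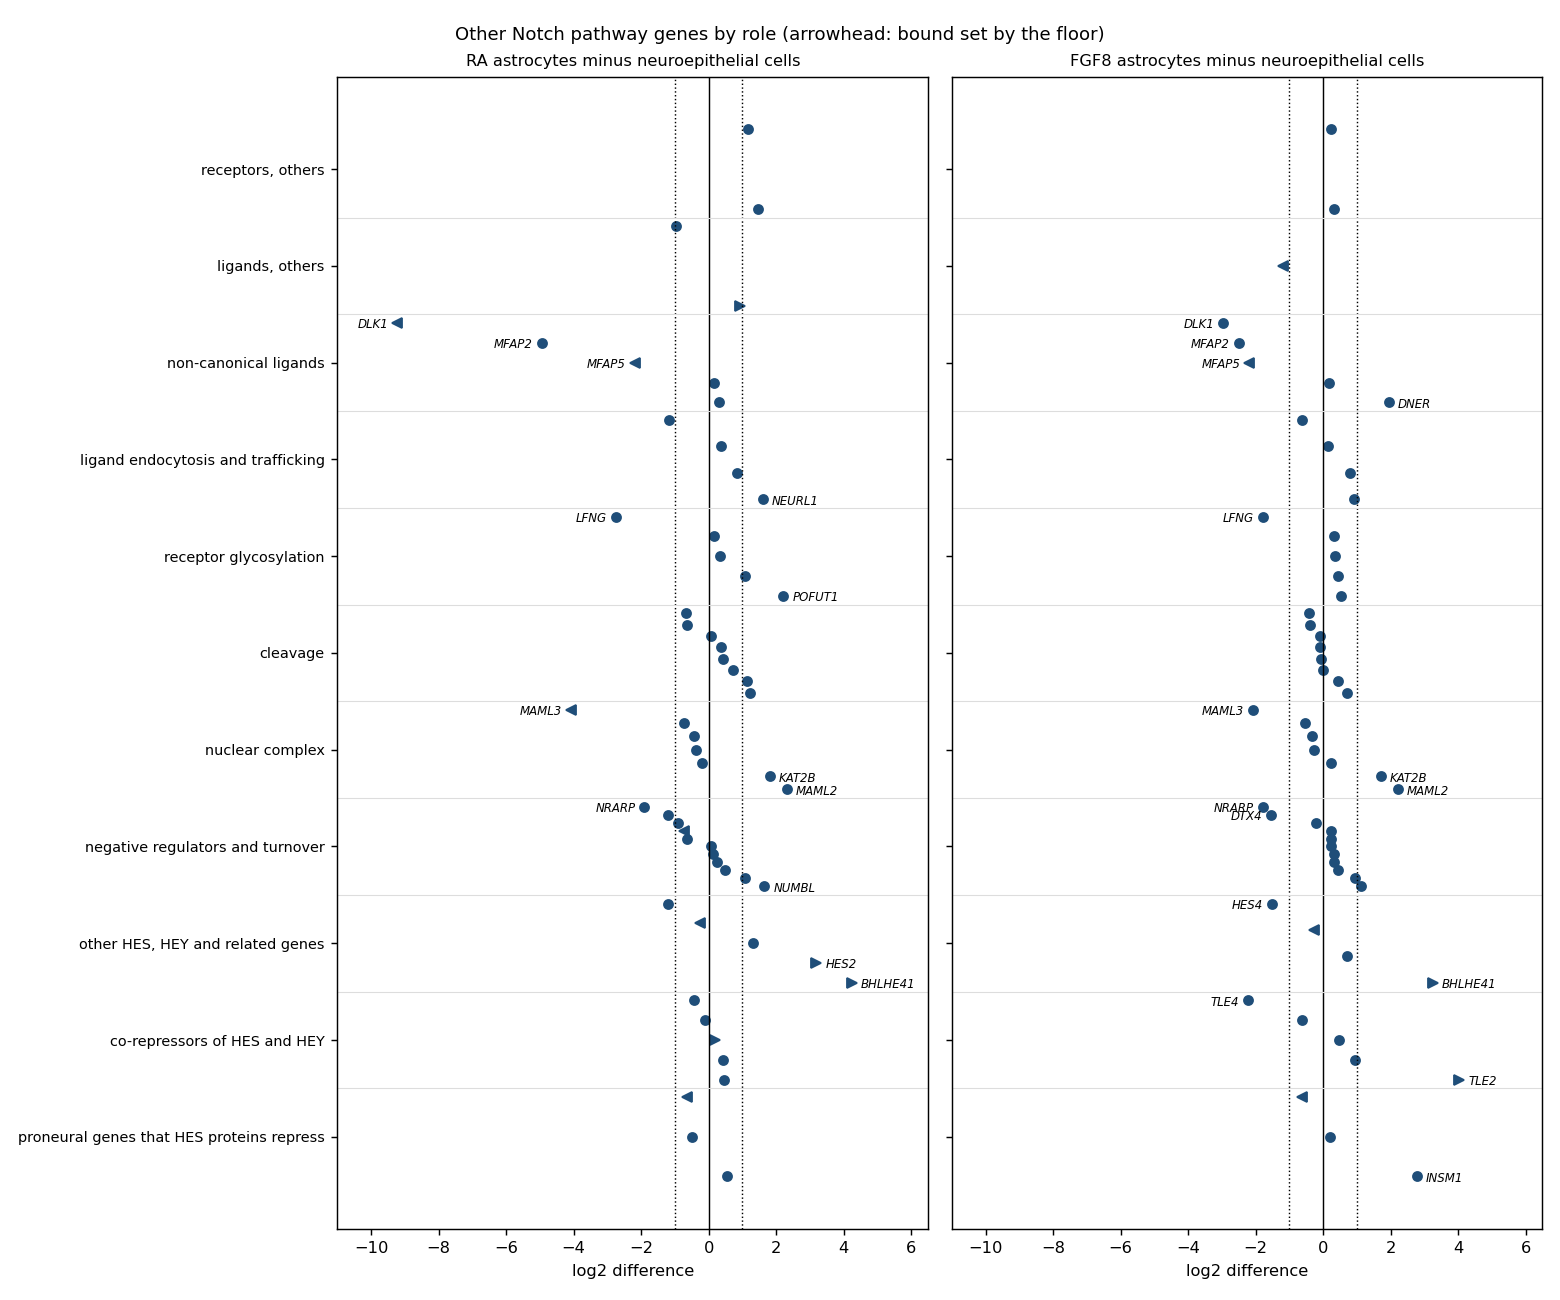
Log2 difference (horizontal axis) of the other Notch pathway genes above the floor on at least 1 of the 2 arrays, by role (rows), for RA (left) and FGF8 (right) astrocytes against neuroepithelial cells. Arrowheads are bounds, dotted lines mark 2-fold, and genes past 1.5 log2 units are named. Of 8 genes in the cleavage row 2 are past 2-fold in RA and 0 in FGF8, against 32.7% and 23.1% of all genes. DLK1 and MFAP2 lie farthest to the left on both sides.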

How the data were processed

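Total RNA of 3 H9-derived cultures, 1 per group, was labelled with biotin by the Affymetrix procedure at a core facility, per the labels' protocols. The deposited intensity values are linear, 1 per probe set, and every array has a trimmed mean of 150.0 (2% off each end), so the values had been scaled before deposit. How probe signals were summarised is not stated in the labels.

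Intensities were quantile-normalized over 54613 non-control probe sets, raised to a floor at percentile 50 and expressed as log2 of the deposited scale (Python 3.11.15, numpy 2.4.6, pandas 2.3.3, a routine tested on simulated data). Genes were named from the platform annotation; all 27 member probe sets matched a RefSeq gene by identifier. Each gene took its probe set with the highest mean log2 value, _x_at types aside where another existed. Genes at the floor on both arrays were not compared. With 1 array per group, differences were counted at 2-fold, with no test; the number of arrays limits precision. The members and lists were chosen with earlier results of these data known. Named besides the members were up to 4 other pathway genes per direction and comparison with the largest differences, 8 fixed ones, and genes illustrating a count, a role or a marker list.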

Additional observations from a re-analysis of the deposited data

Results flagged for a closer look

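HEY2 differed in direction between the morphogens. Against neuroepithelial cells it was at least 1.41-fold lower in RA astrocytes and 2.24-fold higher in FGF8 astrocytes, and the RA minus FGF8 log2 difference was -1.66, a bound. The difference was not tested, each side is 1 array, and both use the same neuroepithelial array. The second HEY2 probe set was at the floor in RA and neuroepithelial cells.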

How the results depend on the processing

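No paired analysis was possible because each group has 1 array. Over 200 recomputed differences of single members 184 kept their side of the 2-fold limit, 11 newly passed 2-fold and 5 no longer did. The 5 were HES1 in FGF8 against neuroepithelial cells (-0.90 with the deposited values, -0.44 with array medians set equal, -0.70 with the mean of all probe sets), HEY2 in the same comparison (0.85 with the deposited values) and NOTCH1 in RA (0.53 with the mean of all probe sets).

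Among differences within 2-fold the sign could turn: with array medians set equal DLL1 and NOTCH2 in FGF8 became 0.19 and 0.33, and HES1 in RA 0.01. HES5 stayed past 2-fold in every comparison and alternative with a fold limit of 2.

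Counts are listed as moved where they changed by a factor above 1.5, or to or from 0. Smaller changes of member counts, with the share of all genes in brackets, were these. Against neuroepithelial cells, 3 were lower in RA with the deposited values (15.8%). In FGF8, 3 were higher with array medians set equal (21.9%) and at 1.5-fold (23.4%). Genes lower in RA than in FGF8 numbered 4 with the floor at percentile 30 (10.2%) and with no floor (16.1%). They also numbered 4 without the less specific probe sets (8.0%) and at 1.5-fold (16.6%), and 2 with the floor at percentile 70 (6.3%). Member counts moved as follows. In RA against neuroepithelial cells, genes higher numbered 0 with probe sets averaged (12.7% of all genes) and at 4-fold (6.5%). Genes lower numbered 4 with the floor at percentile 30 (16.3%), with no floor (21.2%) and at 1.5-fold (24.3%). In FGF8 against neuroepithelial cells, genes higher numbered 1 with the floor at percentile 70 (10.9%) and 0 at 4-fold (3.7%). Genes lower there numbered 1 with array medians set equal (7.0% of all genes) and with the mean of all probe sets (8.1%). They also numbered 1 without the less specific probe sets (9.9%) and at 4-fold (3.5%), and 5 at 1.5-fold (19.6%). The median of the members there became 0.06 with array medians set equal. In RA against FGF8, genes higher numbered 1 at 1.5-fold (19.5%) and genes lower 1 at 4-fold (2.6%). The median of the members there was -0.87 without the less specific probe sets. That last alternative passed over both _s_at and _x_at probe sets where a gene had another type and otherwise took the brightest, so NOTCH2, JAG1 and DLL3 rested on _x_at probe sets and HES1, left with a probe set at the floor on every array, was not compared.

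Counts of the other pathway genes are listed by the same rule, with the share of all genes in brackets. In RA against neuroepithelial cells, 7 were higher with probe sets averaged (12.7%) and 4 at 4-fold (6.5%). Lower were 14 with no floor (21.2%), 17 at 1.5-fold (24.3%) and 5 at 4-fold (5.5%). In FGF8, 13 pathway genes were higher with array medians set equal (21.9%) and at 1.5-fold (23.4%). At 4-fold 4 were higher (3.7%) and 5 lower (3.5%). The medians in FGF8 were -0.05 with the deposited values and -0.09 with the mean of all probe sets. In RA against FGF8, 10 pathway genes were higher with no floor (18.4%), 13 at 1.5-fold (19.5%) and 1 at 4-fold (2.5%), and 5 were lower at 4-fold (2.6%). DLL3, HEY2, JAG2 and DLL4 are limited by their signal near the floor. The causes were not tested.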
